A study of Homo sapiens with 44 samples.

Results

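The matrix metalloproteinases (MMP), the tissue inhibitors of metalloproteinases (TIMP) and the ADAMTS proteases were followed in Ccd-18Co, a fibroblast line from human colon, after stimulation with single cytokines. Members were taken by symbol alone, as every listed gene named MMP, TIMP or ADAMTS followed by a number and nothing else. The rule found 45 of 40663 listed symbols, made up of 22 MMP, 4 TIMP and 19 ADAMTS genes.

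The data were 44 RNA-seq libraries in 11 groups of 4 replicates, which addressed how one stromal cell type answers different inflammatory and fibrotic signals. All cells were first serum starved for 72 h, and libraries were made 24 h after addition of IL-1β at 0.1 ng/ml or of TNF, OSM, TGF-β1, IFNγ, IFNα, IL-22, IL-17A, IL-13 or IL-6 at 10 ng/ml, or from unstimulated cells. The labels do not say whether replicates were separate cultures or passages, so p-values measure only the spread between these libraries, which may be technical. These are the doses of the labels, and the study's text also gives a lower IL-1β dose in one place, so the IL-1β dose is uncertain. All cells came from 1 line, and all 10 comparisons with unstimulated cells share the same 4 unstimulated libraries.

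MMPs are zinc-dependent endopeptidases that cleave collagens, proteoglycans and other matrix proteins, and most are secreted as inactive proenzymes. Collagenases such as MMP1 cut fibrillar collagen, stromelysins such as MMP3 and MMP10 cut non-fibrillar matrix and activate other proMMPs, gelatinases such as MMP2 and MMP9 degrade denatured collagen, and membrane-type MMPs such as MMP14 and MMP16 act at the cell surface. TIMPs bind and block the active site of these enzymes, TIMP3 being held in the matrix and also blocking several ADAM and ADAMTS enzymes. ADAMTS1, ADAMTS4, ADAMTS5 and ADAMTS9 cleave aggrecan and versican, and ADAMTS2 processes procollagen. In the gut, MMPs made by stromal cells are known for matrix loss at ulcers and TIMP1 for its rise in fibrotic tissue.

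Libraries held 742173 to 2213424 estimated counts (median 1480882), and levels are given in CPM, the count of a gene relative to the scaled total of its library. Of 10 fibroblast markers, 9 averaged at least 10 CPM, and their summed level was 17336 to 52597 CPM. The summed level of 4 endothelial markers was 0.0 to 2.65 CPM, and EPCAM, CDH1, PTPRC, CD3E and CD79A were at no more than 2 counts in any library. Epithelial markers summed to 4.81 to 40.6 CPM, mostly KRT18 and VIL1, and the immune list to 0.0 to 73.8 CPM, mostly CD68. The muscle list was higher, at 79.0 to 1347 CPM, mostly ACTA2 with a mean of 451 CPM.

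Of the 45 members, 19 passed the filter on low counts and were tested with all 9513 genes that passed. These were MMP1, MMP2, MMP3, MMP10, MMP12, MMP13, MMP14, MMP16, MMP19, TIMP1, TIMP2, TIMP3, ADAMTS1, ADAMTS2, ADAMTS4, ADAMTS5, ADAMTS6, ADAMTS9 and ADAMTS12. Per kilobase of transcript and averaged over all 44 libraries, TIMP1 had the highest level at 3017 CPM per kb, followed by MMP3 at 1658, MMP1 at 748, MMP10 at 499 and MMP2 at 97.1 CPM per kb. MMP1 and MMP10 changed places when the median length of the coding transcripts was used. In unstimulated cells the order was the same, with TIMP1 at 1887, MMP3 at 349, MMP1 at 278, MMP10 at 93.8 and MMP2 at 85.9 CPM per kb.

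A gene was called when its adjusted p in the edgeR fit over all 44 libraries was under 0.05. TNF, IL-1β and TGF-β1 each changed 8 of the 19 tested members, with 6 upregulated and 2 downregulated in each case. Of all tested genes, 11.5% were called for TNF (5.37% up and 6.09% down), 7.38% for IL-1β (3.46% up and 3.92% down) and 5.69% for TGF-β1 (2.61% up and 3.08% down). OSM upregulated 1 member and downregulated 5, against 1.42% of all genes up and 2.54% down (3.96% in all), and IL-13 upregulated none and downregulated 5, against 1.53% up and 2.4% down (3.93% in all). IFNγ upregulated 2 and downregulated 2, against 5.52% and 5.13% of all genes (10.6% in all). IFNα upregulated 3 and downregulated none, against 4.99% and 4.86% (9.85% in all), and IL-17A upregulated 1 and downregulated 1, against 0.599% and 0.925% (1.52% in all). IL-6 changed no member (0.0105% of all genes), also with none at an unadjusted p under 0.05, and IL-22 changed none (0.0%), with 3 at an unadjusted p under 0.05. DESeq2 also called no member for IL-6 or IL-22. When a log2 fold change over 1.5 in size was required as well, 5 members were called for TNF (4.19% of all genes), 5 for IL-1β (2.78%), 4 for TGF-β1 (1.7%), 6 for OSM (1.3%), 4 for IL-13 (1.47%), 1 for IFNγ (3.53%), 1 for IFNα (3.98%) and 0 for IL-17A (0.452%). The median log2 fold change of the 19 members was 0.74 for TNF, 0.52 for IL-1β, 0.53 for TGF-β1 and -0.34 for IL-13, against -0.02, -0.01, -0.02 and -0.05 over all genes.

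Over the 10 cytokines, 44 of 190 pairs of member and cytokine were called (23.2%), against 5.45% of pairs over all genes, with 25 upregulated and 19 downregulated. The calls fell on 12 members. TIMP1, MMP2 and ADAMTS4 were only upregulated, ADAMTS1, ADAMTS9 and MMP16 were only downregulated, and MMP1, MMP3, MMP10, MMP12, TIMP3 and ADAMTS5 went up with one cytokine and down with another. A test of any difference among the 11 groups called 14 of the 19 members, against 35.7% of all genes. The 14 include MMP13, which passed the filter only through stimulated groups where it was higher.

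**Figure D1:**
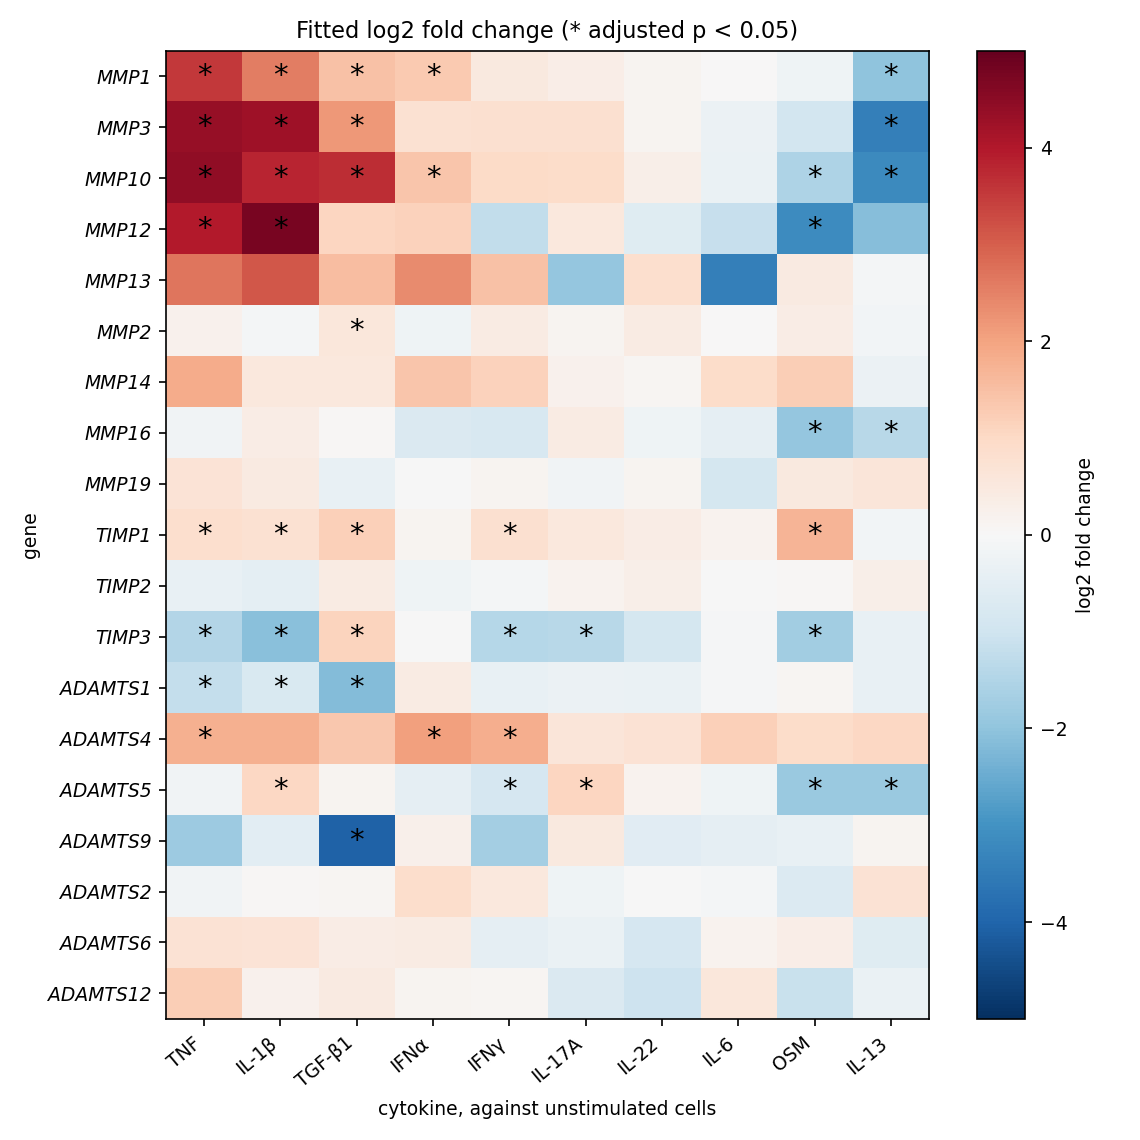
Fitted log2 fold change against unstimulated cells for the 19 tested members (vertical axis) and the 10 cytokines (horizontal axis), with red for higher, blue for lower and an asterisk where adjusted p was under 0.05. MMP1, MMP3 and MMP10 are red for TNF, IL-1β and TGF-β1 and blue for IL-13, while TIMP3 is blue for TNF, IL-1β, IFNγ, IL-17A and OSM and red for TGF-β1; MMP13 has few counts, and its uncalled colours rest on libraries at 0.

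MMP10, MMP1, MMP3, MMP12 and MMP13 are neighbours within a cluster of 9 MMP genes on chromosome 11, all on the minus strand, that spans 102520508 to 102955732 (GRCh38), or 435 kb. MMP7, MMP20, MMP27 and MMP8, at the other end of the cluster, did not pass the filter. MMP1 lies at 102789401 to 102798160, MMP3 at 102835801 to 102843609, MMP10 at 102770502 to 102780628 and MMP12 at 102862736 to 102874982. MMP3 and MMP10 transcripts share 125 stretches of 31 bases, which is 6.98% of those in MMP3 and 7.23% of those in MMP10, and 54.5% of the deposited values of each were not whole numbers. Reads of both could therefore be divided between them, in part. The pseudogene transcript WTAPP1 runs opposite to this locus, and 4.84% of the 31-base stretches of MMP1 lie in it in reverse. WTAPP1 itself averaged 1.07 CPM in unstimulated cells, 5.79 CPM with IL-1β and 10.3 CPM with TNF.

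MMP10 was called for 6 cytokines (4 up, 2 down) and is the member of this cluster with calls whose promoter was in the RefSeq table used here, so its upstream sequence is shown. The 250 bases before its start (GRCh38.p14, chr11:102780629-102780878, minus strand) are printed 5′ to 3′ with the TATA box motif TATAAA in capitals.
MMP10: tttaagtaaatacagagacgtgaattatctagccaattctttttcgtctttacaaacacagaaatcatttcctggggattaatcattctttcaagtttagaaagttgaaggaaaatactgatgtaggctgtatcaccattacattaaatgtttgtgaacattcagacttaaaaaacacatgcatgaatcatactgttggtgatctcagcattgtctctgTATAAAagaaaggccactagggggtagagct
The TATA motif begins 31 bases before the start, and this window had a GC content of 34.4%. On either strand, TATAAA was found in 10.7% of 35116 windows of the same length, the AP-1 motif TGACTCA in 4.2%, the STAT motif TTCNNNGAA in 6.57% and the SP1 motif GGGCGG in 42.6%. The last 3 were not in the MMP10 window as spelled here.

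MMP1, the interstitial collagenase, was raised most by TNF. Its level was 5087, 5534, 7354 and 7238 CPM in the 4 TNF libraries against 526, 445, 604 and 616 CPM in unstimulated cells. IL-1β libraries held 2396, 2409, 4361 and 3906 CPM, and both groups lay wholly above the unstimulated range. MMP1 rose 11.5-fold with TNF (log2 fold change 3.52, SE 0.28, adjusted p = 6.42e-13) and 5.96-fold with IL-1β (2.58, SE 0.27, adjusted p = 8.47e-10). TGF-β1 gave 1443, 1507, 1733 and 1431 CPM and IFNα 880, 1090, 1913 and 1543 CPM, again without overlap with unstimulated cells. These were rises of 2.79-fold (adjusted p = 0.000119) and 2.47-fold (adjusted p = 0.000215). IL-13 went the other way, with 108, 74.1, 198 and 170 CPM, all below the lowest unstimulated library, and a 3.98-fold fall (log2 fold change -1.99, SE 0.27, adjusted p = 1.02e-06). With IFNγ the libraries split into 465 and 435 CPM in replicates 1 and 2 and 1122 and 1040 CPM in replicates 3 and 4, and the log2 fold change of 0.48 was not called (adjusted p = 0.248). OSM libraries, at 449 to 522 CPM, lay within the unstimulated range.

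MMP3 (stromelysin-1) had the second highest level per length of all members and moved further than MMP1. It stood at 649, 499, 534 and 861 CPM in unstimulated cells, at 11117, 8335, 15275 and 16772 CPM after TNF and at 11170, 10138, 12851 and 13744 CPM after IL-1β. The groups were separated by nearly an order of magnitude. MMP3 rose 20.2-fold with TNF (log2 fold change 4.34, SE 0.36, adjusted p = 2.44e-12) and 18.8-fold with IL-1β (4.23, SE 0.36, adjusted p = 4.04e-12). TGF-β1 raised it to 2368, 2794, 3047 and 3086 CPM (4.44-fold, adjusted p = 1.26e-05). IL-13 lowered it to 49.1, 20.8, 79.6 and 88.8 CPM, a 10.7-fold fall (log2 fold change -3.41, SE 0.36, adjusted p = 3.56e-09), and every IL-13 library was below every other library of the experiment for this gene. With OSM, MMP3 was at 311, 394, 392 and 262 CPM, below all unstimulated libraries, but the log2 fold change of -0.90 (SE 0.32) was not called (adjusted p = 0.112). IL-17A libraries, at 935 to 1294 CPM, were all above the unstimulated ones, also without a call (log2 fold change 0.81, adjusted p = 0.234). The same held for MMP1 and MMP10 with IL-17A (log2 fold changes 0.32 and 0.90, adjusted p = 0.687 and 0.234). With IFNγ, replicates 1 and 2 held 647 and 380 CPM and replicates 3 and 4 held 1720 and 1654 CPM (adjusted p = 0.106).

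MMP10 (stromelysin-2) was changed by 6 cytokines, as was TIMP3, and no member by more. Unstimulated libraries held 131, 94.0, 175 and 260 CPM. They rose to 2294, 2549, 4503 and 4796 CPM with TNF (21.4-fold, log2 fold change 4.42, SE 0.39, adjusted p = 1.26e-11) and to 1706, 1468, 3000 and 3175 CPM with IL-1β (14.2-fold, adjusted p = 3.95e-10). TGF-β1 gave 1738, 1779, 2651 and 2398 CPM, a 13.0-fold rise (log2 fold change 3.70, SE 0.38, adjusted p = 3.39e-09) that stood close to that with IL-1β, whereas the fitted rises of MMP1 and MMP3 with TGF-β1 were smaller than those with IL-1β, a difference that was not tested. IL-13 left 26.6, 6.95, 20.8 and 16.9 CPM, a 9.09-fold fall (log2 fold change -3.18, SE 0.42, adjusted p = 6.59e-07). IFNα gave 228, 288, 717 and 518 CPM, of which 1 library overlapped the unstimulated range (log2 fold change 1.41, SE 0.35, adjusted p = 0.00485). This call was lost without IFNα replicate 3 (log2 fold change 1.06, adjusted p = 0.0588). OSM lowered MMP10 to 42.6, 46.8, 89.4 and 48.7 CPM, all below the unstimulated libraries (log2 fold change -1.53, SE 0.37, adjusted p = 0.00838), and this call was lost without unstimulated replicate 4 (-1.22, adjusted p = 0.0865) or OSM replicate 1 (-1.40, adjusted p = 0.0565).

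MMP12, macrophage elastase, was low in unstimulated fibroblasts at 5.88, 16.0, 2.81 and 7.51 CPM. IL-1β raised it to 210, 190, 256 and 202 CPM and TNF to 133, 125, 128 and 115 CPM, far above every library of the other groups. The rises were 26.7-fold with IL-1β (log2 fold change 4.74, SE 0.54, adjusted p = 9.15e-09) and 15.6-fold with TNF (3.96, SE 0.53, adjusted p = 2.93e-07). In contrast to MMP1, MMP3 and MMP10, it was not called for TGF-β1, at 14.8, 16.0, 11.8 and 24.2 CPM (log2 fold change 1.08, adjusted p = 0.285). IL-13 libraries averaged 1.77 CPM and all lay below the unstimulated ones, also without a call (log2 fold change -2.12, adjusted p = 0.102). With OSM it was at 0 counts in 3 of 4 libraries and at 3.34 CPM in the other, a level that overlapped the lowest unstimulated library (adjusted p = 0.0197). The OSM call was lost without unstimulated replicate 2 (adjusted p = 0.126) or OSM replicate 1, 2 or 4 (adjusted p = 0.104, 0.0918 and 0.0625), and without OSM replicate 3 the fitted log2 fold change was -6.54, which rests on libraries at 0. The part of other cell types in the MMP12 level was not tested.

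MMP13, collagenase-3, was at 0 counts in 3 of 4 unstimulated libraries and at 3.42 CPM in the other. It reached 14.6, 9.94, 1.91 and 4.54 CPM with IL-1β and 7.77, 5.17, 3.75 and 6.43 CPM with TNF. Neither was called. MMP13 passed the filter only through stimulated groups where it was higher, so no p is given for it. Both were called without unstimulated replicate 4, when every unstimulated library left was at 0, and these calls have the same limit.

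**Figure D2:**
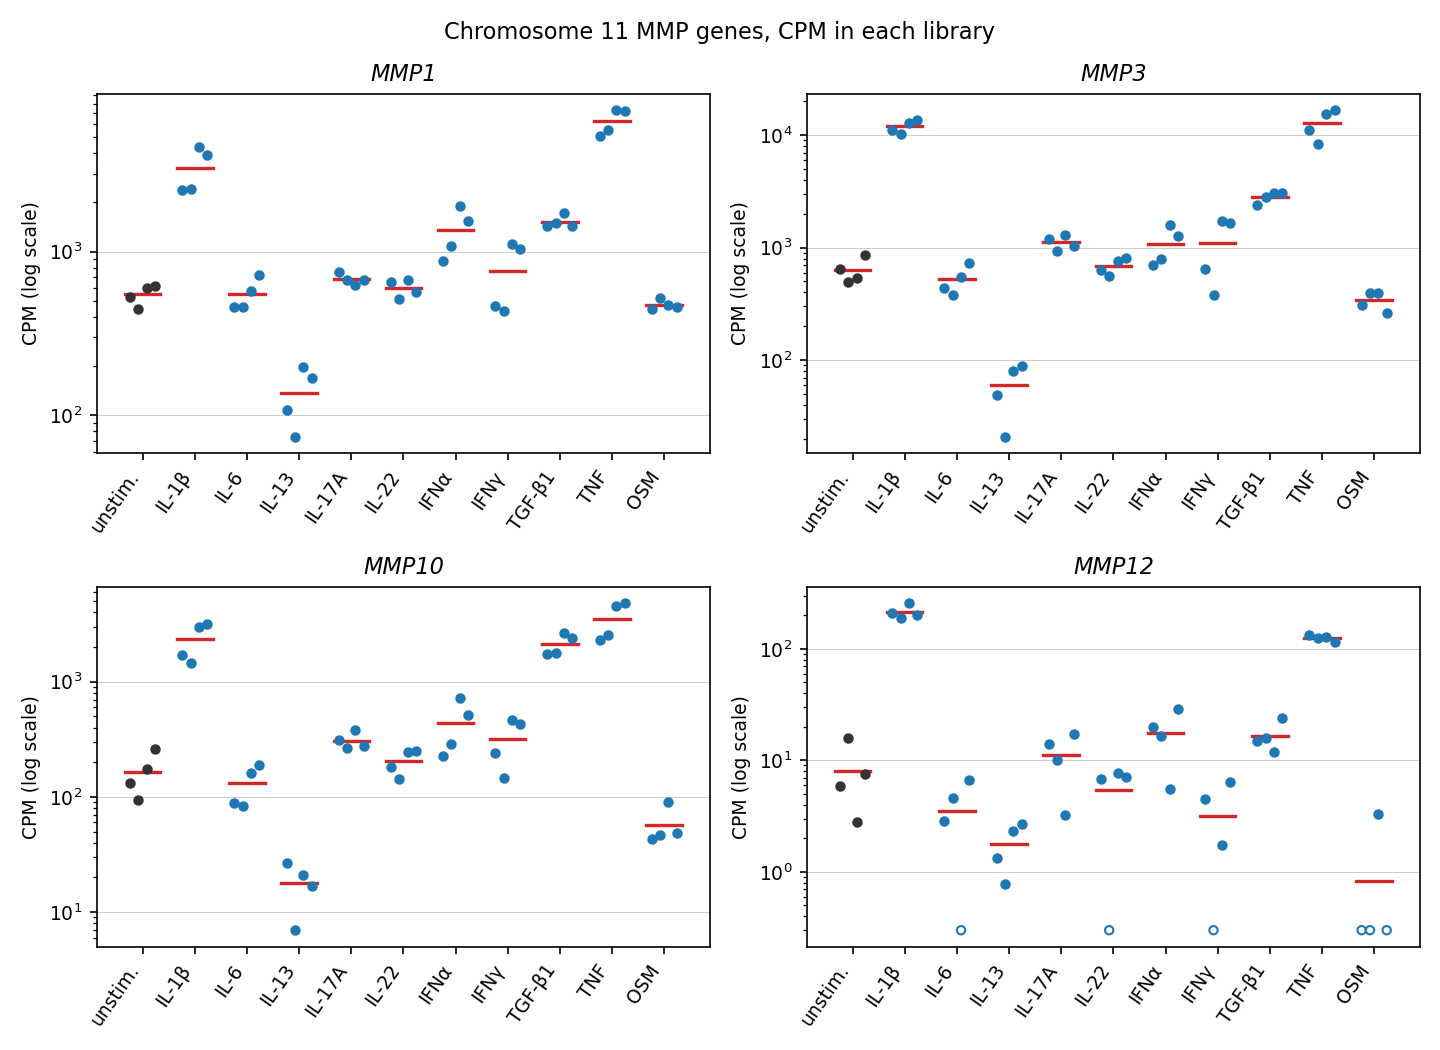
Level of MMP1, MMP3, MMP10 and MMP12 in CPM (logarithmic vertical axis) in each of the 44 libraries by group (horizontal axis; replicates 1 to 4 from left to right, unstimulated cells in black, red bars for group means), with open circles at the foot for libraries at 0. TNF and IL-1β libraries lie above the unstimulated ones for all 4 genes, TGF-β1 libraries for MMP1, MMP3 and MMP10, and IL-13 libraries lie below the unstimulated ones for all 4.

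MMP2 (gelatinase A; chromosome 16, 55389700 to 55506691) was the steadiest of the abundant MMPs, with group means from 260 CPM with IFNα to 445 CPM with TGF-β1. It was at 398, 260, 280 and 269 CPM in unstimulated cells and at 475, 523, 413 and 368 CPM with TGF-β1, so that 1 unstimulated library lay among the TGF-β1 values. The 1.47-fold rise (log2 fold change 0.56, SE 0.15, adjusted p = 0.014) was lost without unstimulated replicate 2 (adjusted p = 0.0722), unstimulated replicate 4 (0.0576) or TGF-β1 replicate 2 (0.072), with no filter on low counts (0.117) and in a fit of the 8 libraries alone (0.17). MMP9 (gelatinase B) did not pass the filter. It was at 0 counts in every unstimulated library and at 7.77, 6.89, 10.5 and 6.43 CPM in the TNF libraries. Set against 3 counts per library, the limit that a count of 0 allows, the mean of 7.90 CPM with TNF was at least 4.04-fold higher. With IL-1β, MMP9 was at 1.51, 0, 0 and 5.84 CPM, a mean under that limit.

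Among membrane-type enzymes, MMP16 was the more abundant and was only lowered. Unstimulated libraries ranged widely, at 52.9, 99.9, 198 and 155 CPM. OSM left 34.7, 20.2, 32.7 and 43.7 CPM, below all of them (3.86-fold fall, log2 fold change -1.95, SE 0.35, adjusted p = 0.000219). IL-13 left 45.8, 47.1, 39.8 and 58.6 CPM, which overlapped the lowest unstimulated library (log2 fold change -1.40, SE 0.34, adjusted p = 0.00958), and the call was lost without unstimulated replicate 3 (-1.07, adjusted p = 0.0724). MMP14 (MT1-MMP), the usual activator of proMMP2, averaged only 4.64 CPM over all libraries. It was higher in all 4 TNF libraries (8.47, 10.3, 11.3 and 8.03 CPM) than in any unstimulated one (4.41, 1.46, 0.704 and 3.42 CPM), but was not called (log2 fold change 1.85). MMP14 had at most 9 counts in any unstimulated library. It passed the filter only through stimulated groups where it was higher, so no p is given for it. DESeq2 called it, as did the edgeR fit without unstimulated replicate 1, and these calls have the same limit. MMP19, a secreted MMP of the interstitium, was called for no cytokine, with group means of 3.22 to 9.79 CPM.

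TIMP1 and TIMP3 went opposite ways with 4 cytokines, and their upstream sequences are shown together for that reason. The 250 bases before each RefSeq start (GRCh38.p14) are chrX:47582186-47582435 for TIMP1 and chr22:32801455-32801704 for TIMP3, both on the plus strand, and capitals mark the SP1 motif GGGCGG or its reverse complement.
TIMP1: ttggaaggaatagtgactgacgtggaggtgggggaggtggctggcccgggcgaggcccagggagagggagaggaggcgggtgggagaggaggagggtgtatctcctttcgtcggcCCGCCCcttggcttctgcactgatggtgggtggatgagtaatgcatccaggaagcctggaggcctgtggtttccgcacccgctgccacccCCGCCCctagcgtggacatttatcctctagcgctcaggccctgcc
TIMP3: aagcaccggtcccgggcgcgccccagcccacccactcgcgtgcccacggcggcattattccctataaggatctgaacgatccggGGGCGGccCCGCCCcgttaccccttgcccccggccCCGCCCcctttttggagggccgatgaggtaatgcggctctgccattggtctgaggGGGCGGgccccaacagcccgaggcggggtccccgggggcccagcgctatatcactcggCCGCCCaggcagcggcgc
TIMP1 held 2 such matches and TIMP3 5, at GC contents of 64.8% and 72.4%, and neither window held the TATA, AP-1 or STAT letters given above on either strand. The TIMP1 gene model of GENCODE begins within the last bases of its window. Of the 12 called members, the RefSeq table used here held promoters for MMP10, TIMP1 and TIMP3 only, and for 26 of the 45 members in all.

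TIMP1 (chromosome X, 47582408 to 47586789) was raised by 5 cytokines and lowered by none. Unstimulated libraries held 2061, 1185, 1256 and 1303 CPM, replicate 1 standing above the others. OSM gave the highest values, 5491, 4862, 4467 and 3792 CPM, a 3.21-fold rise (log2 fold change 1.68, SE 0.21, adjusted p = 3.33e-07). TGF-β1 gave 3958, 3986, 3325 and 2083 CPM (2.30-fold, adjusted p = 0.000139), the lowest of them just above the highest unstimulated library. TNF gave 2749, 2259, 2966 and 2311 CPM (1.77-fold, adjusted p = 0.00528). IL-1β gave 2454, 2157, 2575 and 2577 CPM (1.68-fold, adjusted p = 0.0155), all above the unstimulated range. The IL-1β call was lost without unstimulated replicate 2 (adjusted p = 0.0794), 3 (0.0586) or 4 (0.0551). IFNγ libraries, at 1979, 1519, 3065 and 3547 CPM, overlapped it (log2 fold change 0.80, adjusted p = 0.00765), and that call was lost without IFNγ replicate 4 (0.61, adjusted p = 0.0732) and in a fit of the 8 libraries alone (adjusted p = 0.138). TIMP1 overlaps SYN1 on the opposite strand.

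TIMP3 (chromosome 22, 32801705 to 32863041) was lowered by 5 cytokines and raised by TGF-β1. Its unstimulated level was the most spread of the abundant members, at 436, 271, 122 and 160 CPM. IL-1β brought it to 61.1, 64.3, 53.4 and 53.8 CPM, a 4.26-fold fall (log2 fold change -2.09, SE 0.34, adjusted p = 1.52e-05). OSM gave 99.9, 91.3, 60.7 and 47.8 CPM (3.29-fold fall, adjusted p = 0.000617) and TNF 122, 67.2, 94.5 and 77.1 CPM (2.75-fold fall, adjusted p = 0.00157). These 3 groups lay below every unstimulated library, TNF replicate 1 only just. IFNγ gave 140, 77.2, 77.2 and 69.8 CPM, of which replicate 1 overlapped the unstimulated range (2.72-fold fall, adjusted p = 0.00207). IL-17A gave 112, 92.8, 115 and 56.3 CPM (2.64-fold fall, adjusted p = 0.0148). The IL-17A call was lost without unstimulated replicate 1 (log2 fold change -0.97, adjusted p = 0.183), unstimulated replicate 2 (adjusted p = 0.056), or IL-17A replicate 2 (0.0564) or 4 (0.0908). TGF-β1 raised TIMP3 to 698, 697, 391 and 341 CPM, the lower values overlapping unstimulated replicate 1 (log2 fold change 1.10, SE 0.32, adjusted p = 0.0291). This call was lost without unstimulated replicate 2, 3 or 4 (adjusted p = 0.0595, 0.111 and 0.12), without TGF-β1 replicate 1 or 2 (0.114 and 0.111) and in a fit of the 8 libraries alone (0.13). TIMP3 overlaps SYN3, on the opposite strand.

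TIMP2, which also takes part in proMMP2 activation with MMP14, was called for no cytokine. Its group means ran from 82.1 CPM with IL-1β to 152 CPM with TGF-β1, around 115 ± 18.1 CPM (SD, n = 4) in unstimulated cells. The test of any difference among the 11 groups did call it (adjusted p = 0.00442). TIMP4 was at no more than 2 counts in any library.

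**Figure D3:**
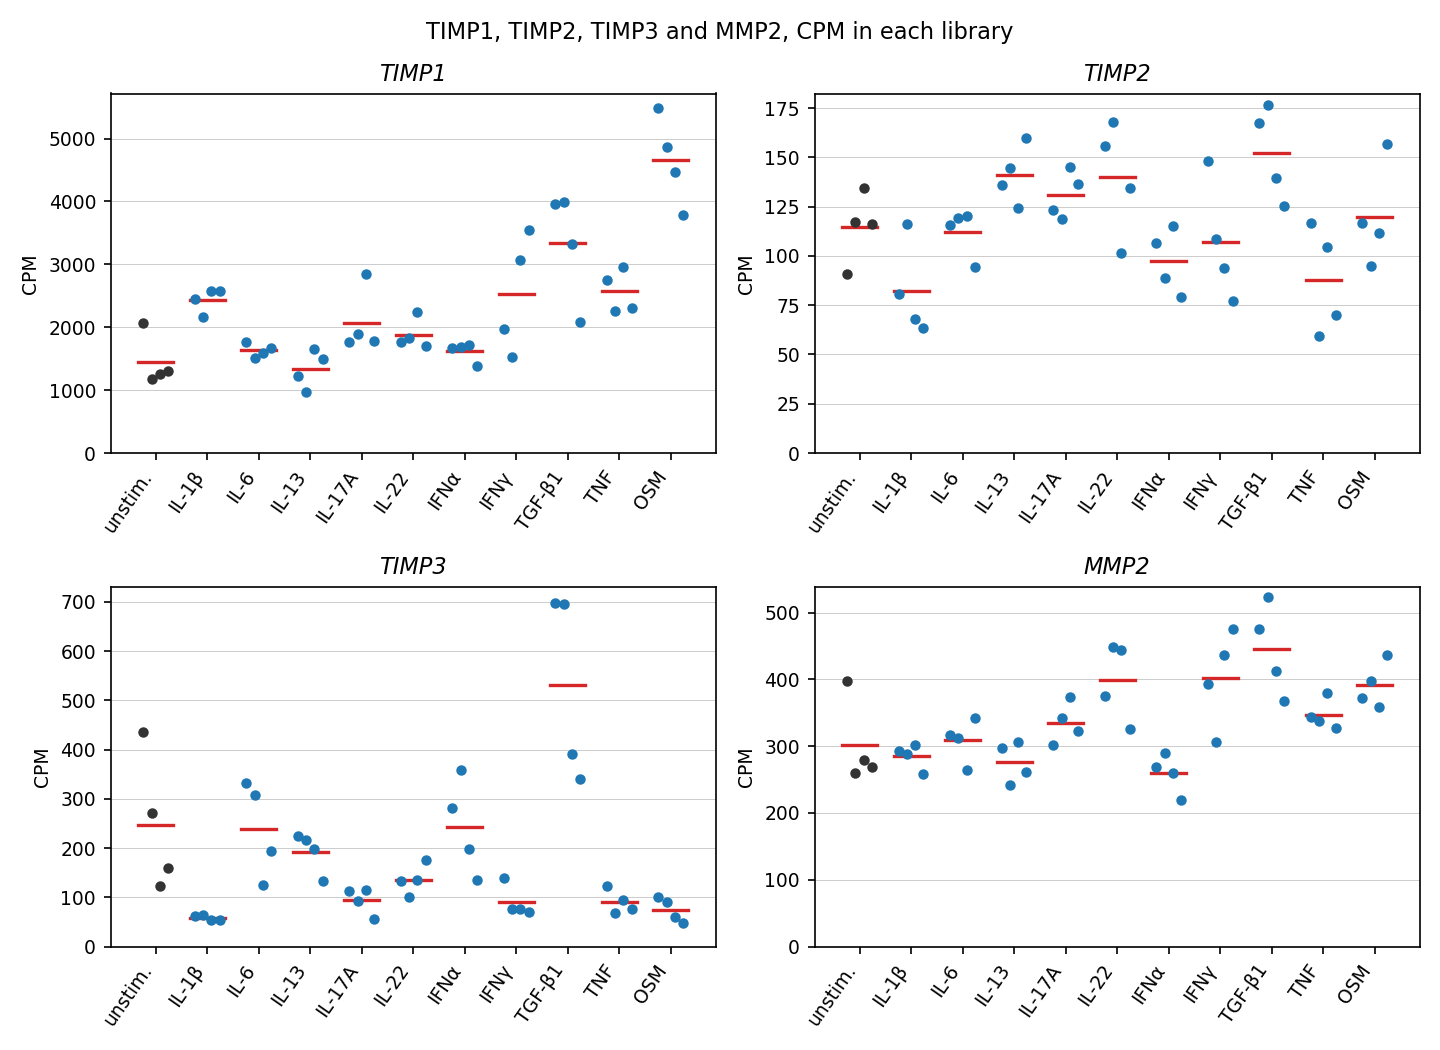
Level of TIMP1, TIMP2, TIMP3 and MMP2 in CPM (linear vertical axis from 0) in each library by group (horizontal axis; replicates 1 to 4 from left to right, unstimulated cells in black, red bars for group means). TIMP1 is highest in the OSM libraries (3792 to 5491 CPM), where TIMP3 is at 47.8 to 99.9 CPM, and TGF-β1 libraries are high for both.

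To set collagenase and stromelysin mRNA beside their inhibitor, the summed CPM per kb of MMP1, MMP3 and MMP10 was divided by that of TIMP1 in each library. The ratio was 0.40 ± 0.122 (SD, n = 4) in unstimulated cells. It was 3.70 ± 1.09 with TNF and 2.99 ± 0.39 with IL-1β, and lay between 2.61 and 5.19 in those 8 libraries. With IL-13 it was 0.0626 ± 0.0149 and with OSM 0.0771 ± 0.0123, both below every other group. The low ratio came with lower MMP1, MMP3 and MMP10 for IL-13, where TIMP1 averaged 1331 CPM, and with higher TIMP1 and lower MMP10 for OSM, where MMP3 averaged 340 CPM against 636 CPM without a call. TGF-β1 gave 0.89 ± 0.372, between 0.587 and 1.40. These are ratios of mRNA, given as a description.

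**Figure D4:**
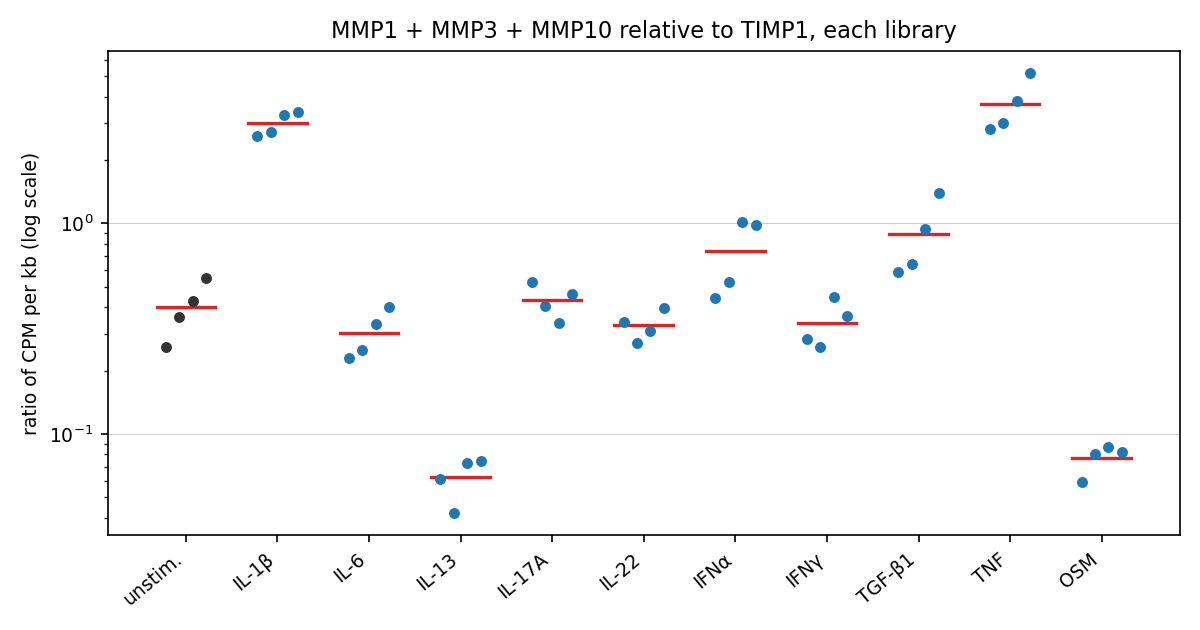
Ratio of the summed level per kb of MMP1, MMP3 and MMP10 to that of TIMP1 (logarithmic vertical axis) in each library by group (horizontal axis; replicates 1 to 4 from left to right, unstimulated cells in black, red bars for group means). TNF and IL-1β libraries stand at 2.61 or more, IL-13 and OSM libraries at 0.0872 or less, and the unstimulated libraries between 0.26 and 0.551.

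ADAMTS5, an aggrecanase, was the most responsive member of its family, raised by 2 cytokines and lowered by 3. It was at 167, 205, 270 and 297 CPM in unstimulated cells. IL-17A raised it to 494, 563, 396 and 544 CPM (2.13-fold, log2 fold change 1.09, SE 0.22, adjusted p = 0.00367) and IL-1β to 497, 599, 427 and 414 CPM (2.06-fold, adjusted p = 0.000908), with no overlap in either case. IL-13 left 67.7, 54.8, 69.3 and 70.2 CPM and OSM 60.9, 69.4, 60.0 and 72.6 CPM, well under the unstimulated range. The falls were 3.58-fold (log2 fold change -1.84, SE 0.23, adjusted p = 5.16e-07) and 3.57-fold (-1.84, SE 0.23, adjusted p = 3.40e-07). IFNγ gave 161, 112, 97.1 and 151 CPM (1.80-fold fall, adjusted p = 0.00919), a call lost without unstimulated replicate 4 (adjusted p = 0.0627), IFNγ replicate 3 (0.0704) and in a fit of the 8 libraries alone (0.0608). TNF, at 179 to 239 CPM, was not called.

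ADAMTS1, a versicanase that lies 72.5 kb from ADAMTS5 on chromosome 21 (26835755 to 26845409, against 26917922 to 26967088), was lowered by 3 cytokines and raised by none. It was at 232, 288, 248 and 210 CPM in unstimulated cells and at 43.7, 58.5, 57.2 and 58.7 CPM with TGF-β1, a 4.49-fold fall (log2 fold change -2.17, SE 0.20) and the smallest adjusted p of any gene in that comparison (3.09e-10). TNF gave 146, 107, 82.5 and 96.4 CPM (2.26-fold fall, adjusted p = 8.52e-06) and IL-1β 136, 168, 119 and 158 CPM (1.68-fold fall, adjusted p = 0.0044). All 3 groups lay below the lowest unstimulated library. With IL-1β the neighbours went apart, ADAMTS1 down and ADAMTS5 up. With OSM, where ADAMTS5 fell, ADAMTS1 was at 224 to 343 CPM and was not called.

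ADAMTS9, which cleaves versican and aggrecan, was lower by 4.05 on the log2 scale with TGF-β1 (SE 0.91, adjusted p = 0.00345), falling from 16.6, 5.83, 12.7 and 27.3 CPM to 1.56, 2.13, 0 and 0 CPM. Without TGF-β1 replicate 2 the log2 fold change was -4.67, which again rests on libraries at or near 0. TNF (8.47, 2.58, 4.50 and 2.14 CPM) and IFNγ (11.3, 0.831, 5.20 and 1.42 CPM) were lower on average but not called (adjusted p = 0.0944 and 0.121).

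ADAMTS4, another aggrecanase, was called higher for IFNα, IFNγ and TNF, at low levels. Unstimulated libraries held 0.49, 2.19, 4.22 and 7.51 CPM, IFNα libraries 8.82, 4.61, 15.9 and 29.9 CPM, IFNγ libraries 9.04, 8.31, 16.5 and 16.4 CPM and TNF libraries 14.8, 12.9, 15.8 and 5.36 CPM. The IFNγ libraries alone did not overlap the unstimulated ones. Log2 fold changes were 2.05 (adjusted p = 0.0156), 1.81 (0.0385) and 1.76 (0.043), and rose to 2.72, 2.50 and 2.44 without unstimulated replicate 4. The IFNα call was lost without unstimulated replicate 1 (adjusted p = 0.0747), unstimulated replicate 2 (0.0616) or IFNα replicate 4 (0.149). The IFNγ call was lost without unstimulated replicate 1, 2 or 3 or IFNγ replicate 3 or 4, at adjusted p from 0.0546 to 0.13. The TNF call was lost without unstimulated replicate 1, 2 or 3 or TNF replicate 1, 2 or 3, at adjusted p from 0.0614 to 0.14. All 3 were lost in a fit of the 8 libraries alone, at adjusted p from 0.0816 to 0.134. Of its deposited values, 97.7% were not whole numbers, so its level is uncertain where reads could be divided with other transcripts. The test of any difference among groups did not call it (adjusted p = 0.0712).

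ADAMTS2, the procollagen N-proteinase, ADAMTS6 and ADAMTS12 were called for no cytokine. Their group means were 6.78 to 20.6 CPM for ADAMTS2, 9.98 to 30.8 CPM for ADAMTS6 and 4.53 to 24.4 CPM for ADAMTS12. ADAMTS12 was above every unstimulated library in all 4 TNF libraries (19.5 to 34.3 against 4.78 to 18.2 CPM), without a call (adjusted p = 0.291). ADAMTS6 differed among the 11 groups in the overall test (adjusted p = 0.00268).

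**Figure D5:**
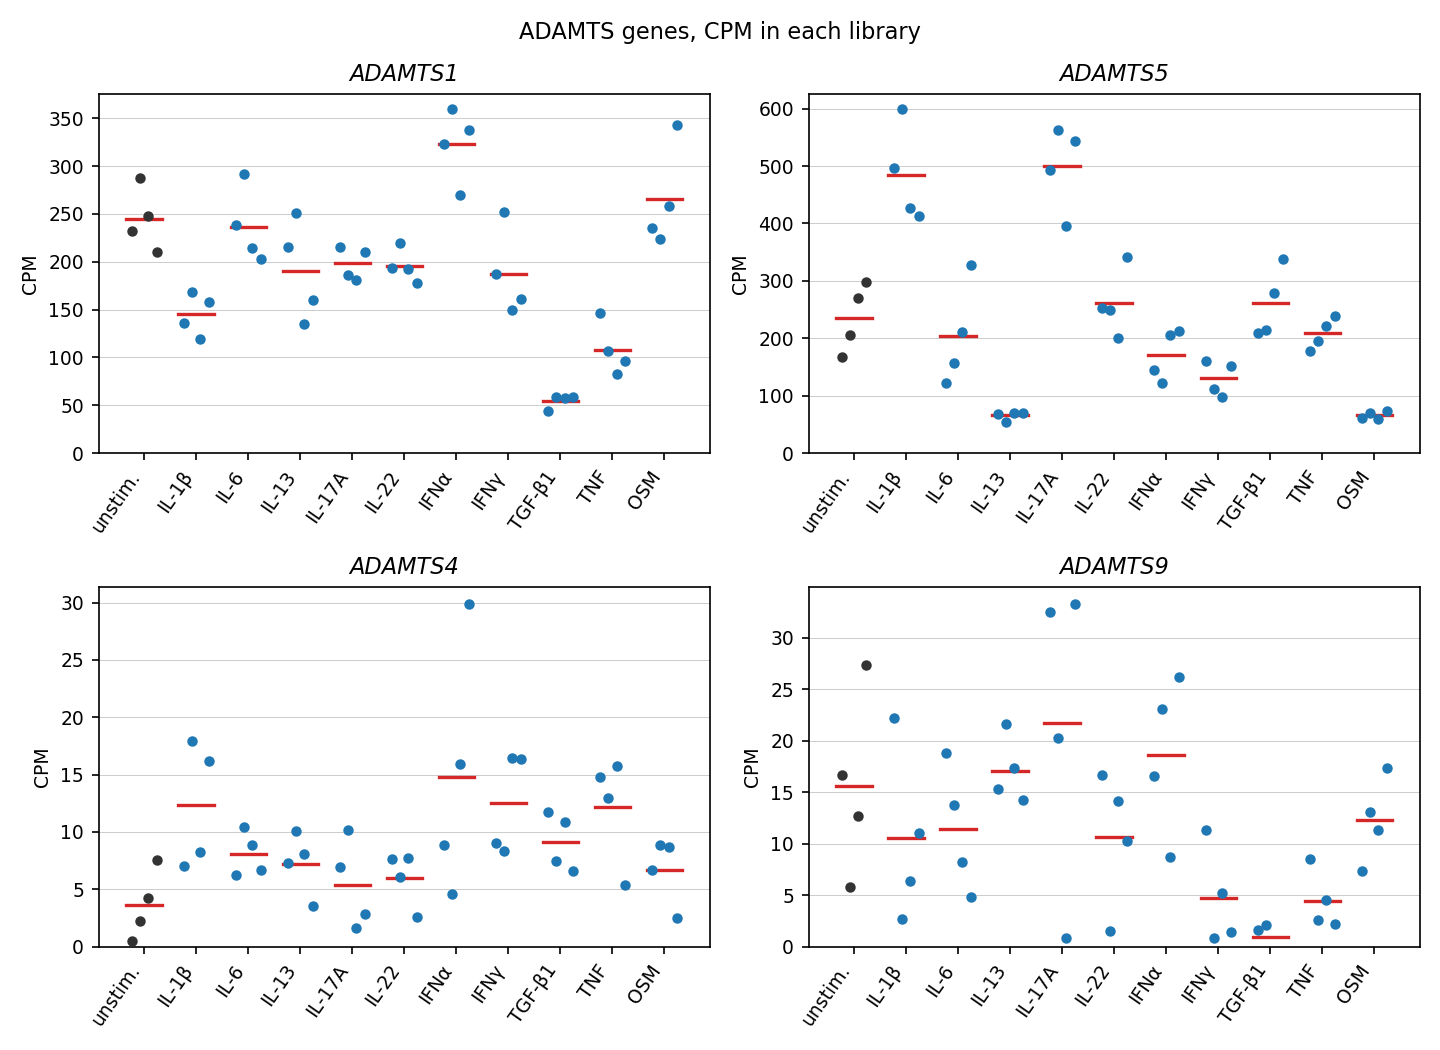
Level of ADAMTS1, ADAMTS5, ADAMTS4 and ADAMTS9 in CPM (linear vertical axis from 0) in each library by group (horizontal axis; replicates 1 to 4 from left to right, unstimulated cells in black, red bars for group means). ADAMTS1 is lowest with TGF-β1 (43.7 to 58.7 CPM), ADAMTS5 is highest with IL-1β and IL-17A (396 to 599 CPM) and lowest with IL-13 and OSM (54.8 to 72.6 CPM), and ADAMTS4 and ADAMTS9 reach at most 33.3 CPM.

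Direct comparisons were made for 4 pairs of cytokines. Between TNF and IL-1β, 2 of the 19 members differed, 1 higher and 1 lower with TNF (1.15% of all genes were called, 0.452% higher and 0.694% lower), and with a log2 difference over 1.5 in size 0 did (0.368% of all genes). ADAMTS5 was 2.32-fold lower with TNF (log2 difference -1.21, SE 0.22, adjusted p = 0.00107). MMP1 was 1.93-fold higher with TNF (0.95, SE 0.25, adjusted p = 0.0455), with all 4 TNF libraries above all 4 IL-1β libraries, but this call was lost without IL-1β replicate 1, 2 or 4 (adjusted p = 0.181, 0.232 and 0.0537) or TNF replicate 2, 3 or 4 (0.0501, 0.152 and 0.103). MMP3 and MMP10 were not called, and MMP12 was lower in every TNF library than in any IL-1β library without a call (log2 difference -0.78, 95% interval -1.63 to 0.07, adjusted p = 0.496).

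TGF-β1 and IL-13 differed for 11 of the 19 members (12.4% of all genes were called), 9 of them higher with TGF-β1 and 2 lower (6.05% and 6.39% of all genes), and 7 with a log2 difference over 1.5 in size (4.82%). The difference was 118-fold for MMP10 (log2 difference 6.88, SE 0.46, adjusted p = 2.53e-15), 47.3-fold for MMP3 (5.56, SE 0.39, adjusted p = 6.09e-15) and 11.1-fold for MMP1 (3.47, SE 0.28, adjusted p = 5.02e-13). MMP12, ADAMTS5, TIMP3, MMP16, TIMP1 and MMP2 were higher by 3.19, 1.99, 1.46, 1.45, 1.33 and 0.68 on the log2 scale. ADAMTS9 and ADAMTS1 were lower with TGF-β1 by 4.18 and 1.80 on that scale. Without TGF-β1 replicate 2 the difference for ADAMTS9 was 4.80, with the remaining TGF-β1 libraries at 0 to 1.56 CPM.

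IFNγ and IFNα differed for 6 members (9.39% of all genes), 2 higher and 4 lower with IFNγ (4.46% and 4.93% of all genes), and for 1 with a log2 difference over 1.5 in size (2.74%). With IFNγ, TIMP3 was 2.67-fold lower (adjusted p = 0.00289), ADAMTS1 1.72-fold lower (adjusted p = 0.00269) and MMP12 5.32-fold lower (adjusted p = 0.00788, and a log2 difference of -3.00 in place of -2.41 without IFNγ replicate 4). MMP2 was 1.55-fold higher (adjusted p = 0.00273), with a call lost in a fit of the 8 libraries alone (adjusted p = 0.0517). MMP1 was 1.77-fold lower (adjusted p = 0.0291), a call lost without IFNα replicate 3 or 4 (0.192 and 0.0879) or IFNγ replicate 1 or 2 (0.152 and 0.137). TIMP1 was 1.56-fold higher (adjusted p = 0.0397), a call lost without any 1 of the 4 IFNα libraries or without IFNγ replicate 3 or 4, at adjusted p from 0.0569 to 0.247. Both of these were also lost in a fit of the 8 libraries alone (0.187 and 0.154).

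OSM and IL-6, 2 cytokines of the gp130 receptor family, differed for 4 members (2.67% of all genes), 1 higher and 3 lower with OSM (0.988% and 1.68%), all 4 by over 1.5 on the log2 scale (1.02%), whereas IL-6 itself changed none against unstimulated cells. With OSM, TIMP1 was 2.85-fold higher (log2 difference 1.51, SE 0.21, adjusted p = 4.24e-06), and ADAMTS5 was 3.11-fold lower (-1.64, SE 0.23, adjusted p = 5.04e-06). TIMP3 was 3.18-fold lower (-1.67, SE 0.33, adjusted p = 0.00116). MMP16 was 2.86-fold lower (-1.51, SE 0.35, adjusted p = 0.00638), a call lost without OSM replicate 2 (-1.34, adjusted p = 0.0525).

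Of the 26 members that did not pass the filter, MMP20, MMP21, MMP27, ADAMTS18 and ADAMTS20 had 0 counts in all libraries. MMP7, MMP8, MMP15, MMP17, MMP25, MMP26, MMP28, TIMP4, ADAMTS7 and ADAMTS17 had at most 3 counts in every library. ADAMTS3, ADAMTS8, ADAMTS10, ADAMTS13, ADAMTS14, ADAMTS15, ADAMTS16, ADAMTS19, MMP9, MMP11 and MMP24 exceeded 3 counts in at least 1. ADAMTS16 was at 0 in all unstimulated libraries and averaged 4.42 CPM with TGF-β1, a mean at least 2.26-fold above 3 counts per library. Its TGF-β1 libraries ran from 0.907 to 8.51 CPM (1 to 8 counts), the lowest of them under that limit. MMP11 was likewise at 0 in unstimulated cells and averaged 1.96 CPM with TGF-β1, a level of about 3 counts. Its TGF-β1 libraries ran from 0 to 5.87 CPM, and 8 of their 10 counts were in 1 library.

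A list of 47 genes that act with these proteases was counted beside them, of which 29 were tested. The 29 include SERPINB2, which passed the filter only through groups where it was high, and A2M and ELN, which may have. The counts may include their calls. IL-1β changed 12 of the 29 (4 up, 8 down, or 41.4% against 7.38% of all genes), TNF 14 (4 up, 10 down, 48.3% against 11.5%) and TGF-β1 13 (8 up, 5 down, 44.8% against 5.69%). IFNγ changed 9 (5 up, 4 down, 31.0% against 10.6%), OSM 6 (3 up, 3 down, 20.7% against 3.96%) and IL-17A 6 (1 up, 5 down, 20.7% against 1.52%). IFNα changed 5 (2 up, 3 down, 17.2% against 9.85%) and IL-13 4 (all down, 13.8% against 3.93%), while IL-6 and IL-22 changed none (0.0105% and 0.0% of all genes). The median log2 fold change of the 29 was -0.35 for IL-1β, -0.42 for TNF and 0.31 for TGF-β1, against -0.01, -0.02 and -0.02 over all genes. TFPI2, a Kunitz-type inhibitor of plasmin and of several MMPs, was called in the same direction as MMP1, MMP3 and MMP10 for TNF, IL-1β and IL-13. TFPI2 was not called higher with TGF-β1, which raised MMP1, MMP3 and MMP10. Nor was it called with IFNα, which raised MMP1 and MMP10. It averaged 764 ± 475 CPM (SD, n = 4) without stimulation, 3085 ± 684 CPM with TNF, 2718 ± 439 CPM with IL-1β and 90.8 ± 36.7 CPM with IL-13 (log2 fold changes 2.02, 1.83 and -3.07, adjusted p = 0.000479, 0.00184 and 4.32e-06). TFPI2 was also called higher with IL-17A (1.62, adjusted p = 0.0253) and lower with OSM (-1.68, adjusted p = 0.00999). The IL-17A call was lost without unstimulated replicate 1 or 2 or IL-17A replicate 2 or 4 (adjusted p from 0.0599 to 0.162), and the OSM call without unstimulated replicate 3 or 4 or OSM replicate 1 or 3 (0.0527 to 0.0795).

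In the plasminogen system, whose product plasmin activates proMMPs, TNF raised PLAU (urokinase) from 134 ± 28.8 to 389 ± 49.6 CPM (log2 fold change 1.53, adjusted p = 9.88e-07). IFNα and IFNγ raised PLAT (tissue plasminogen activator) from 129 ± 34 to 374 ± 56.3 and 524 ± 177 CPM (1.54 and 2.02, adjusted p = 1.92e-05 and 1.13e-07). SERPINB2 (PAI-2) was at 0 in all unstimulated libraries and averaged 25.6 CPM with IL-1β and 32.6 CPM with TNF, at least 13.1-fold and 16.7-fold above 3 counts per library. It passed the filter only through the groups where it was high, so no p is given for it. A2M, a broad proteinase trap, was called higher with IFNγ, at 90.7 ± 28.7 CPM against 4.36 ± 3.75 CPM (log2 fold change 4.36). A2M may likewise have passed the filter only through groups where it was high, so its call is uncertain and no p is given for it.

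Of the ADAM family and the substrates, TGF-β1 raised ADAM12 from 16.3 ± 4.72 to 77.2 ± 32.7 CPM (log2 fold change 2.23, adjusted p = 0.00025) and IL-1β lowered ADAM19 from 362 ± 83.5 to 89.3 ± 24.1 CPM (-2.01, adjusted p = 1.79e-11). TNF lowered COL1A1, a substrate of MMP1, from 10640 ± 3880 to 3498 ± 1790 CPM (-1.61, adjusted p = 0.00165). ELN (elastin) was called higher with IL-1β at 14.2 ± 4.56 CPM and with TGF-β1 at 12.7 ± 5.26 CPM against 1.89 ± 1.19 CPM (log2 fold changes 2.84 and 2.69). The unstimulated mean lay under the 1.95 CPM of 3 counts. ELN may have passed the filter only through the groups where it was high, so its calls are uncertain and no p is given for it. The TGF-β1 call was lost with no filter on low counts and without unstimulated replicate 2 or 4 or TGF-β1 replicate 1.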

How the data were processed

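Per the labels and the study's methods, the authors assigned reads to transcripts with kallisto 0.48.0, checked them with FastQC 0.11.9 and MultiQC 1.14 (build hg38 in the submitters' processing notes) and deposited 1 table of estimated counts per gene symbol, not normalized, of which 5.73% of values were not whole (tolerance 1e-06). The transcript release, the step from transcript to gene and the use of strand were not given in the sources used here. Here, estimated counts were rounded, genes with too few counts were removed with edgeR's filterByExpr, and libraries were scaled by TMM. Groups came from the labels. One quasi-likelihood model with a coefficient per group was fitted to 44 libraries (edgeR 4.0.16, R 4.3.3), with Benjamini-Hochberg adjustment over 9513 genes and a threshold of 0.05. SEs are the log2 fold change over the square root of F. The code was tested on simulated data. Alternatives were DESeq2 (1.42.0) size factors and tests, other filters, a replicate block, the 8 libraries of a comparison alone, a fold threshold and each library left out.

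Levels per kb used the canonical GENCODE transcript, and coordinates and overlaps came from GENCODE 44. Members, gene lists and tests were chosen with earlier results of these data known. Values in single libraries are given, in the groups described, for members called for at least 1 cytokine and for the 5 highest per length. Partner genes are named where the log2 fold change passed 1.5 in size at adjusted p under 0.05, at most 4 per comparison; their alternatives were added after seeing the data. MMP9, MMP13, MMP14, MMP19, TIMP2, ADAMTS2, ADAMTS6, ADAMTS12, ADAMTS16 and MMP11 are described outside that rule, to account for every member. Depth limits low genes: 3 counts in a library, the most that a count of 0 allows, were 1.95 CPM on average in unstimulated libraries, for counting error only. No replicate pair was identical, and each differed by more than sampling noise.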

Additional observations from a re-analysis of the deposited data

Results flagged for a closer look

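In each group of 4 libraries, the highest and lowest value of each called member was set against the rest by its gap to the nearest value over the group's range and Dixon's critical value for 4 samples. Of 132 groups, 10 had a library past it, where chance gives about 1 in 20, or 6.6. TIMP1 was at 2061 CPM in unstimulated replicate 1 (others 1185 to 1303 CPM), at 2848 CPM in IL-17A replicate 3 (others 1768 to 1899) and at 1389 CPM in IFNα replicate 4 (others 1677 to 1711). MMP2 was at 398 CPM in the same unstimulated replicate 1 (others 260 to 280). TIMP3 was at 140 CPM in IFNγ replicate 1 (others 69.8 to 77.2). MMP10 was at 89.4 CPM in OSM replicate 3 (others 42.6 to 48.7), and MMP12 was at 3.34 CPM in that library and at 0.0 in the other 3. MMP12 was at 0.0 CPM in IL-22 replicate 2 (others 6.84 to 7.69). ADAMTS1 was at 43.7 CPM in TGF-β1 replicate 1 (others 57.2 to 58.7), and ADAMTS5 was at 54.8 CPM in IL-13 replicate 2 (others 67.7 to 70.2).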

How the results depend on the processing

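All 67 called pairs of member and comparison kept their direction under every alternative run; 57 stayed called in the alternatives that kept all replicates (the fold threshold aside), 50 in every fit without 1 library and 49 in all. The limits are the depth, which leaves MMP12, MMP13, MMP14, ADAMTS4 and ADAMTS9 near 0 in several groups, the spread of the unstimulated libraries for TIMP3 and MMP16, and sequence shared between MMP3 and MMP10, whose effect on read assignment was not tested; the cause of each lost call was not tested. With a fold threshold (log2 fold change over 1.5 in size), called members numbered 5 for IL-1β, 0 for IL-17A, 1 for IFNα, 1 for IFNγ, 4 for TGF-β1, 5 for TNF, 0 for TNF against IL-1β, 1 for IFNγ against IFNα and 7 for TGF-β1 against IL-13, and called partner pairs 17 of 69. In fits of the 8 libraries compared, they numbered 1 for IFNγ, 5 for TGF-β1 and 2 for IFNγ against IFNα. With no filter on low counts they numbered 4 for IL-17A and 1 for IL-22 (TIMP3, log2 fold change -0.90, adjusted p = 0.0209).

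Without 1 library, the counts ran from 7 to 9 for IL-1β, 0 to 0 for IL-6 and IL-22, 4 to 5 for IL-13, 1 to 2 for IL-17A, 2 to 3 for IFNα, 2 to 7 for IFNγ, 6 to 8 for TGF-β1, 7 to 9 for TNF, 4 to 7 for OSM, 1 to 2 for TNF against IL-1β, 4 to 6 for IFNγ against IFNα, 11 to 12 for TGF-β1 against IL-13, 3 to 5 for OSM against IL-6 and 14 to 16 for any group. For IFNγ the count was 7 without IFNγ replicate 1 or 2 and 2 without IFNγ replicate 3 or 4. DESeq2 lost none of the 67 calls and added ADAMTS4 for IL-1β, MMP12 for IL-13, MMP14 for TNF, MMP2 for IFNγ and ADAMTS9 for IFNγ against IFNα. The added MMP14 call is limited, since MMP14 passed the filter only through stimulated groups where it was higher. The median log2 fold change of all genes lay within 0.05 of 0 under both scalings. MMP2 stood at 172 CPM per kb with the median length of coding transcripts.

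The labels do not say what a replicate number marks, and over all genes tested the numbers did not meet the rule for pairing, although several members differed between replicates 1 and 2 and replicates 3 and 4. Same-numbered libraries of different groups had a mean correlation of deviations of 0.0237 (220 pairs), against -0.0077 for other numbers (660 pairs), and no comparison had all 4 pairs over 0.1. With a replicate block all 67 calls stayed, and MMP3 for IFNα (log2 fold change 0.72, adjusted p = 0.0499) and OSM (-0.85, adjusted p = 0.0352), MMP10 for IFNγ (0.91, adjusted p = 0.00258), IL-17A (1.00, adjusted p = 0.00458) and OSM against IL-6 (-1.16, adjusted p = 0.000907) and ADAMTS9 for IFNγ against IFNα (-2.12, adjusted p = 0.0416) were added.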

Other observations

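Within groups, several members differed between replicates 1 and 2 and replicates 3 and 4, a split noticed in the values and not given by the labels. The mean of replicates 3 and 4 was above that of replicates 1 and 2 in 11 of 11 groups for MMP10, 10 for MMP3 and 9 for MMP1, MMP16 being above in 9 as well. It was below in 10 of 11 groups for TIMP3 and in 9 for ADAMTS1. The other 13 tested members were above in 3 to 8 groups. For MMP10 the 2 means were 113 and 217 CPM in unstimulated cells and 2422 and 4650 CPM with TNF, and for TIMP3 they were 354 and 141 CPM in unstimulated cells and 697 and 366 CPM with TGF-β1. No test was made of this pattern.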
